A study of Mus musculus with 20 samples.

Results

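The binding sites of the coactivator CBP were set against the chromatin that carries monomethylated lysine 4 of histone H3 (H3K4me1) in mouse CD4+/CD8+ double-positive (DP) thymocytes. The comparison used every CBP peak and every H3K4me1 peak of the deposited lists. CBP had 6372 peaks and H3K4me1 had 74607, together 80979 of the 270514 peaks in the 16 lists of the series. A CBP peak was placed in H3K4me1 chromatin where it shared at least 1 bp with an H3K4me1 peak, and an H3K4me1 peak carried CBP by the same criterion.

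All groups were thymocytes of C57BL/6 mice, with no allele or agent named in the labels, and each group was 1 target of immunoprecipitation or the FAIRE assay. The labels describe the cells as T cells of the thymus at the DP stage. The protocol text of the FAIRE and RNA samples calls the mice wild-type and gives an age of 5 to 6 weeks, and no age is attached to the CBP or H3K4me1 labels. The CBP list came from 1 replicate, whereas the H3K4me1 list came from merged replicates, so variation between animals was not measured. The lists name no genes, so the labelled cell type was not checked against its markers. Read depth was unknown, and peaks are given by position in mm9 without a gene or sequence.

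CBP, like its relative p300, is a histone acetyltransferase that is brought to DNA by transcription factors, and it acetylates histones at active enhancers and promoters. H3K4me1 is deposited broadly around enhancers and on the flanks of active promoters. At an active promoter the nucleosomes next to the start site carry H3K4me3 in place of H3K4me1, so a stretch of H3K4me1 is often interrupted there. DP thymocytes are the stage at which T-cell receptor alpha genes are rearranged and both coreceptors are expressed.

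The lists had very different shapes. CBP peaks had a median width of 80 bp and covered 0.580 Mb. H3K4me1 peaks had a median width of 640 bp and covered 69.4 Mb. A CBP peak was therefore a short interval that could lie inside a domain, on its edge, in an interruption of it, or away from it.

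A minority of the CBP peaks lay in H3K4me1, a further small group lay in interruptions of the mark, and the largest group was far from it. In H3K4me1 peaks were 2417 CBP peaks, which is 37.9% (95% Wilson interval 36.7 to 39.1). Another 556, or 8.73% (8.06 to 9.44), lay wholly in a gap of at most 2000 bp between consecutive H3K4me1 peaks, called a short gap here. Elsewhere within 2000 bp of an H3K4me1 edge were 399, or 6.26% (5.69 to 6.88). The remaining 3000, or 47.1% (45.9 to 48.3), were farther than 2000 bp from any H3K4me1 peak and are called far. Wilson intervals cover counting error only. Both shares differed with H3K4me3, the mark of active promoters. Among the 1864 CBP peaks that overlapped H3K4me3, 71.6% (69.5 to 73.6) overlapped H3K4me1 and 23.8% (21.9 to 25.8) lay in a short gap. Among the 4508 CBP peaks without H3K4me3, 24.0% (22.8 to 25.3) overlapped H3K4me1, 2.51% (2.09 to 3.01) lay in a short gap and 66.4% (65.0 to 67.8) were far. Which group was largest depended on the peaks and the rule used. In the upper 50% of CBP peaks by area, 48.5% were in H3K4me1 and 35.1% were far. Where peaks within 500 bp counted as overlapping, 48.7% were in H3K4me1 and 47.1% were far.

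Counted by CBP centre and per length over all H3K4me1 peaks, all short gaps and all flanks, CBP was densest in the short gaps. The order did not hold within classes, since H3K4me1 peaks over 4000 bp held 72.9 CBP centres per Mb. Short gaps without H3K4me3 held 4.72 CBP peaks per Mb, a stricter count that takes only CBP peaks lying wholly in the gap. The short gaps held 813 CBP peak centres over 18.3 Mb, or 44.5 per Mb. These include CBP peaks that crossed an edge and are counted in H3K4me1 above, since 556 lay wholly in a short gap. With only those 556, the short gaps were not denser than the H3K4me1 peaks. The H3K4me1 peaks themselves held 2143 centres over 69.4 Mb, or 30.9 per Mb. The flanks up to 2000 bp beyond the marked stretches held 414 centres over 127 Mb, or 3.25 per Mb. CBP was thus denser within the marked stretches and their interruptions than immediately outside them.

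The CBP peaks with the largest areas were mostly in H3K4me1. Area is the authors' own value for each peak and was used within the CBP list only. The median area was 13858 for CBP peaks in H3K4me1 (quartiles 7069 to 24222) and 8009.5 for those outside it (4781 to 12978), a ratio of 1.73. Between these stood the CBP peaks in short gaps, at 11098, and those elsewhere within 2000 bp, at 9363, and the far CBP peaks had 7376. Peak widths followed the same order, with medians of 100 bp in H3K4me1, 90 bp in short gaps, 80 bp elsewhere within 2000 bp and 60 bp farther away. The quartiles of the sets overlapped, so area did not separate them. The rule itself can add to the order of width and area. A touch of 1 bp placed a CBP peak in H3K4me1, whereas a short gap had to hold it wholly. By CBP centre the area ratio in over outside was 1.54.

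The change along the list was concentrated at its upper end. In decile 1 of the CBP list by area, the lowest, 25.9% (22.6 to 29.4) of peaks were in H3K4me1. The share was 38.9% (35.2 to 42.8) in decile 8, 57.6% (53.7 to 61.4) in decile 9 and 80.2% (76.9 to 83.1) in decile 10. The share of far CBP peaks was 61.9% in decile 1, 23.4% in decile 9 and 5.49% in decile 10. Short gaps held between 6.12% and 13.7% of each decile, with no steady order.

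**Figure D1:**
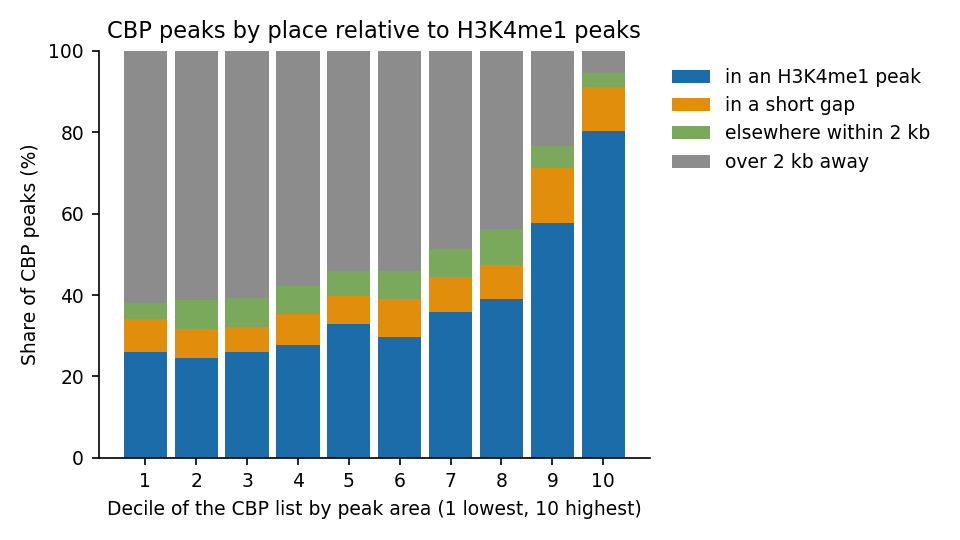
CBP peaks by place relative to H3K4me1, in deciles of the CBP list by the authors' area (horizontal axis, lowest to highest), as shares of each decile in percent (vertical axis). The blue part, CBP peaks in an H3K4me1 peak, is 25.9% in the lowest decile and 80.2% in the highest, and the grey part, over 2 kb away, is 61.9% and 5.49%.

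The 3 CBP peaks of highest area show different settings within H3K4me1. The first, at chr8:125225741-125226160, was 420 bp wide with an area of 204239, and its centre lay 2849 bp from the nearest edge of an H3K4me1 peak of 10250 bp at chr8:125223101-125233350. It overlapped FAIRE, which isolates open chromatin, and also H3K4me3, the transcription factor ETS1 and the general transcription factors TFIIB and TFIIE. The second, at chr9:20456001-20456280, had an area of 183374 and extended past the end of a 1070 bp H3K4me1 peak, with FAIRE, H3K4me3 and Ser2P, the elongating form of RNA polymerase II (Pol II). The last, at chr16:32660271-32660610, had an area of 180191 and sat 1080 bp from the edge of a 2460 bp H3K4me1 peak, near its middle, with FAIRE as its one other list. These 3 peaks thus cover a wide domain with several factors, an edge, and a site with open chromatin alone.

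Chromosomes differed in the share. On autosomes it lay between 28.5% on chromosome 3 (107 of 375 CBP peaks) and 48.9% on chromosome 11 (203 of 415). On the X chromosome 8 of 74 CBP peaks, or 10.8% (5.58 to 19.9), were in H3K4me1 and 51 were far from it. The X chromosome held 1322 H3K4me1 peaks over 0.912 Mb, against 2.00 to 5.88 Mb on each autosome. The X and Y chromosomes held few CBP peaks, and the share was 38.3% with autosomes alone.

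Most CBP peaks in H3K4me1 were wholly inside the mark. Of the 2417, 1866 or 77.2% (75.5 to 78.8) lay inside and 551 or 22.8% (21.2 to 24.5) crossed an edge. CBP peaks that crossed an edge overlapped H3K4me3 in 70.2% (66.3 to 73.9), and those wholly inside in 50.8% (48.5 to 53.1). The 109 CBP peaks that touched 2 H3K4me1 peaks, and so bridged the gap between them, stood out for area. Their median area was 44589 and their median width 210 bp, and 76.1% of them overlapped FAIRE. A wide CBP peak can reach more than 1 H3K4me1 peak by its width alone.

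For the 2143 CBP peaks whose centre was inside an H3K4me1 peak, the median distance to the nearest edge was 560 bp (quartiles 109 to 1228). The way from the edge to the middle of each H3K4me1 peak was cut into 5 equal zones, each of which would hold 20% of evenly spread centres, and the centres were most frequent at both ends. The outermost zone, next to the edge, held 25.9% of them and the innermost, at the middle, held 24.5%. The zones between held 14.7%, 15.8% and 19.0%. With all widths pooled, centres were thus most frequent in the outermost and innermost zones and fewest in the zone next to the outermost. The excess at the edge held for the H3K4me1 peaks as listed only. With H3K4me1 peaks within 500 bp joined, the outermost zone held 9.14% of centres (8.07 to 10.3), below the 20% of an even spread.

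Width of the H3K4me1 peak and H3K4me3 status went with these positions. In H3K4me1 peaks of 500 to 1000 bp, 47.1% of centres were in the outermost zone and 10.4% in the innermost. In peaks of 1000 to 2000 bp the outermost zone held 34.6% and the innermost 20.7%. In the narrowest peaks, up to 500 bp, both zones held 22.5%, so these followed no such order. In peaks of 2000 to 4000 bp the outermost zone held 19.7% and the innermost 32.5%. In peaks over 4000 bp they held 15.2% and 25.3%. Over all CBP peaks, centres thus lay more often near the edge of H3K4me1 peaks of 500 to 2000 bp. In wider ones they lay more often near the middle. For CBP peaks without H3K4me3 in H3K4me1 peaks of 1000 to 2000 bp, both zones were close, at 25.9% in the outermost and 24.1% in the innermost. With H3K4me3 at the CBP peak, 30.8% of 1131 centres were in the outermost zone and 21.9% in the innermost. Without H3K4me3, 20.4% of 1012 centres were in the outermost zone and 27.5% in the innermost. In H3K4me1 peaks of 1000 to 2000 bp the outermost zone held 45.7% of CBP centres with H3K4me3 and 25.9% of those without. In peaks of 2000 to 4000 bp it held 26.3% with H3K4me3 and 12.7% without, and in peaks over 4000 bp the values were close, at 15.8% with H3K4me3 and 14.2% without.

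**Figure D2:**
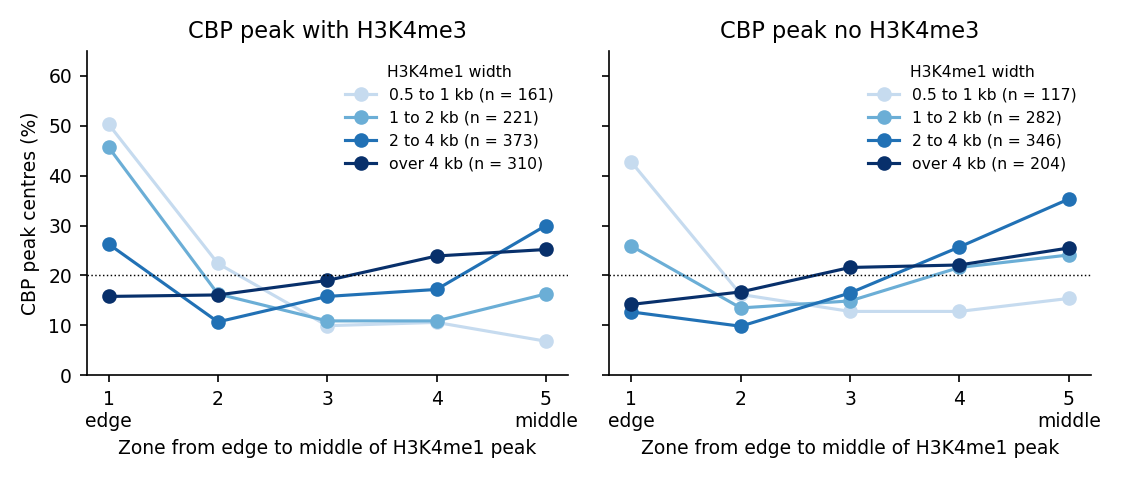
Position of CBP peak centres in H3K4me1 peaks, as the share of centres in percent (vertical axis) in each of 5 zones from the edge to the middle (horizontal axis), for CBP peaks with H3K4me3 (left) and with no H3K4me3 (right). Lines are width classes of the H3K4me1 peak from 0.5 kb upwards and the dotted line marks the 20% of an even spread. The lines for peaks of 0.5 to 1 kb are highest at the edge, and those for peaks of 2 to 4 kb reach 30.0% and 35.3% at the middle.

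CBP peaks near an edge overlapped both Pol II lists below, TBP, TFIIB, TFIIE and TFIIH more often than those at the middle. Ser5P, the form of Pol II found soon after initiation, was at 33.4% (29.6 to 37.4) of the outermost 554 CBP peaks and 16.7% (13.8 to 20.2) of the innermost 526. Total Pol II was at 49.5% (45.3 to 53.6) of the outermost and 31.9% (28.1 to 36.0) of the innermost. TBP was at 50.0% of the outermost and 34.6% of the innermost, TFIIB at 47.8% and 37.6%, TFIIE at 46.9% and 31.6%, and TFIIH at 13.0% and 6.84%. H3K4me3 was also more frequent near the edge, at 62.8% (58.7 to 66.7) of the outermost and 47.1% (42.9 to 51.4) of the innermost. The shares by position were not split by H3K4me3 or by width of the H3K4me1 peak. Taf1, TFIIA, TFIIF and Ser2P were rare at both positions, with overlapping intervals, and Ser2P was at 0.903% of the outermost and 1.52% of the innermost. ETS1, a transcription factor of developing T cells, had overlapping intervals at the 2 positions, at 24.4% (21.0 to 28.1) of the outermost and 26.2% (22.7 to 30.2) of the innermost. FAIRE was lowest between these positions, at 44.6% of the outermost, 28.7% of the CBP peaks between, and 37.6% of the innermost.

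**Figure D3:**
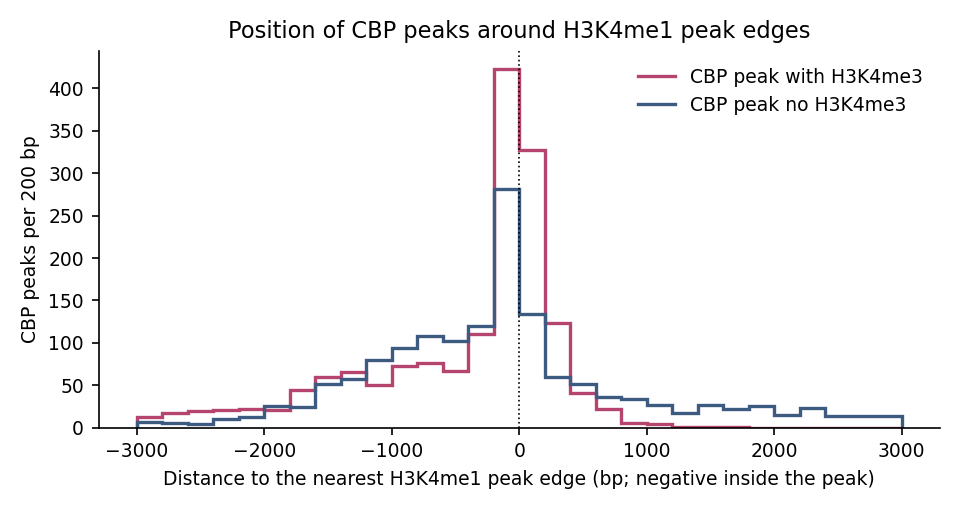
Number of CBP peaks per 200 bp (vertical axis) against the distance to the nearest H3K4me1 edge in bp (horizontal axis, negative inside the H3K4me1 peak), for CBP peaks with H3K4me3 (red) and without (blue). Distances run from the CBP centre inside the H3K4me1 peak and from the nearer CBP end outside it. CBP peaks that overlap H3K4me1 but have their centre outside it are not drawn. Both lines are highest within 200 bp of an edge, and beyond 1 kb outside an edge few CBP peaks with H3K4me3 remain.

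CBP peaks in short gaps carried H3K4me3, open chromatin and Pol II more often than those in H3K4me1, and ETS1 less often. H3K4me3 was at 79.7% (76.1 to 82.8) of the 556 CBP peaks in short gaps and 55.2% (53.2 to 57.2) of the 2417 in H3K4me1. Ser5P was at 46.6% (42.5 to 50.7) in short gaps and 21.9% (20.3 to 23.6) in H3K4me1. FAIRE was at 52.7% (48.5 to 56.8) in short gaps and 38.0% (36.1 to 39.9) in H3K4me1. ETS1 ran the other way, at 12.2% (9.76 to 15.2) in short gaps and 24.5% (22.8 to 26.2) in H3K4me1. The directions were the same with and without H3K4me3. Among CBP peaks with H3K4me3, Ser5P was at 50.6% in short gaps and 32.4% in H3K4me1, and ETS1 at 13.8% in short gaps and 30.5% in H3K4me1. Among CBP peaks without H3K4me3, total Pol II was at 38.1% (29.6 to 47.3) of 113 in short gaps and 19.1% (16.9 to 21.6) of 1082 in H3K4me1, and ETS1 was at 6.19% in short gaps and 17.1% in H3K4me1.

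The general transcription factors assemble with Pol II at start sites, and those named next were also more frequent at CBP peaks in short gaps. TBP, which binds the TATA element, was at 62.6% in short gaps and 39.9% in H3K4me1. TFIIE, which helps to bring in TFIIH, was at 53.6% in short gaps and 37.9% in H3K4me1. TFIIA, which steadies TBP on DNA, was at 17.3% in short gaps and 5.92% in H3K4me1. Across 12 lists of factors, polymerase forms and open chromatin, the median CBP peak in a short gap overlapped 4 and the median CBP peak in H3K4me1 overlapped 2. TFIIF differed within overlapping intervals, at 7.37% (5.48 to 9.85) in short gaps and 5.71% (4.85 to 6.71) in H3K4me1.

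Short gaps with H3K4me3 or open chromatin held CBP more often than those without. Of 41326 short gaps, 524 held a CBP peak, and their median width was 670 bp, against 220 bp for the 40802 without. Gaps with H3K4me3 held CBP in 3.79% (3.47 to 4.14) and gaps without it in 0.177% (0.135 to 0.232). Gaps with FAIRE held CBP in 9.26% (8.34 to 10.3) and gaps without it in 0.529% (0.460 to 0.607). Per length the order was the same, at 165 CBP peaks per Mb in gaps with FAIRE and 12.8 per Mb in gaps without, and at 73.4 per Mb in gaps with H3K4me3 and 4.72 per Mb in gaps without. Gaps of 100 bp or less are close to the width of a CBP peak and held 2 CBP peaks in 14635 gaps. Median width was 490 bp for gaps with H3K4me3 and 140 bp for gaps without. The shares and densities by H3K4me3 and FAIRE were not split by gap width. Density was highest in gaps of 250 to 500 bp, at 50.9 CBP peaks per Mb, and was 18.7 per Mb in gaps of 1000 to 2000 bp. Within their gap, CBP centres were fewest next to the H3K4me1 edges, with 11.3% in the outermost zone, 20.7%, 21.0% and 20.9% in those between, and 26.1% in the innermost. A CBP peak had to fit wholly in the gap, so centres closest to an edge were left out by the definition.

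The 3 CBP peaks of highest area in short gaps all overlapped FAIRE. The first, at chr14:54847011-54847460, had an area of 138189 in a gap of 850 bp and overlapped 8 other lists, among them ETS1, Ser5P, TBP and TFIIB. The second, at chr9:32736171-32736560, had an area of 105604 in a gap of 540 bp and overlapped 7. The last, at chr8:86590621-86590850, had an area of 104712 in a gap of 1100 bp. It overlapped FAIRE and TBP itself, whereas its gap as a whole also held H3K4me3, total Pol II, Ser5P, TFIIB, TFIIE and TFIIH. These gaps were also the 3 with the highest summed CBP area.

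Outside H3K4me1, CBP peaks close to an edge differed from those beyond. The 3955 CBP peaks outside the mark had a median distance of 32350 bp to the nearest H3K4me1 edge (quartiles 2365 to 268660). Within 2000 bp were 955, a further 787 lay up to 20000 bp away, and 2213, or 56.0% (54.4 to 57.5), lay farther. Of the 303 CBP peaks within 100 bp of an edge, 73.3% overlapped H3K4me3, 49.5% FAIRE and 50.8% TFIIB, which bridges TBP and Pol II. Of the 126 at 1000 to 2000 bp, 6.35% overlapped H3K4me3, 5.56% FAIRE and 4.76% TFIIB. By 1 to 2 kb from the mark, CBP peaks were therefore nearly without these lists. Taf1, the largest subunit of TFIID, went the other way, at 8.25% within 100 bp, 22.2% at 1000 to 2000 bp and 21.4% over 20000 bp away.

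Far from H3K4me1, CBP peaks were nearly bare of open chromatin, TFIIB and ETS1. FAIRE was at 38.0% (36.1 to 39.9) of CBP peaks in H3K4me1 and 0.833% (0.565 to 1.23) of far ones. TFIIB was at 41.3% (39.4 to 43.3) in H3K4me1 and 1.53% (1.15 to 2.04) far from it. ETS1 was at 24.5% in H3K4me1 and 0.833% far from it, and 84.5% (81.6 to 86.9) of the 701 CBP peaks with ETS1 were in H3K4me1. Total Pol II and TBP differed less, at 38.1% and 39.9% in H3K4me1 and at 15.4% and 15.5% far from it. Taf1 and TFIIH, which opens the DNA at the start site, were higher far from the mark. Taf1 was at 4.63% (3.87 to 5.55) in H3K4me1 and 20.7% (19.3 to 22.2) far from it. TFIIH was at 11.1% (9.90 to 12.4) in H3K4me1 and 19.9% (18.5 to 21.3) far from it. None of the 12 lists was present at 27.8% of CBP peaks in H3K4me1, 11.7% of those in short gaps, 49.4% of those elsewhere within 2000 bp and 68.9% of far ones.

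**Figure D4:**
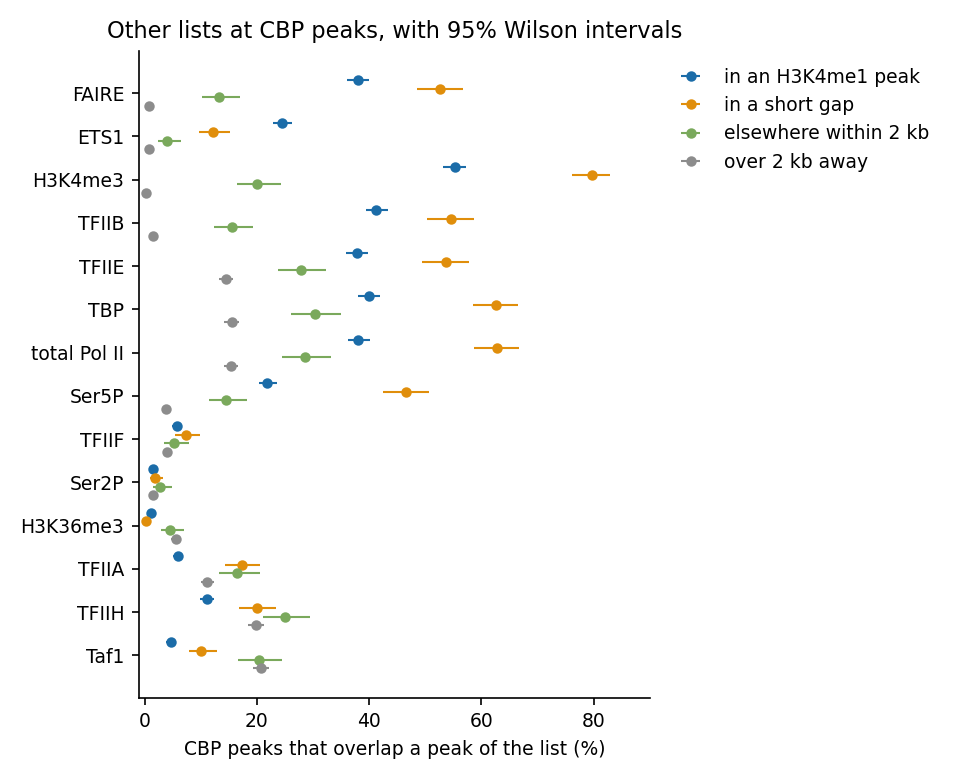
Share of CBP peaks that overlap each other list, in percent (horizontal axis), by place relative to H3K4me1 (blue, orange, green and grey points), with lines for 95% Wilson intervals. Short gaps lie highest for H3K4me3, Ser5P, total Pol II, TBP, TFIIE, TFIIB and FAIRE, H3K4me1 peaks lie highest for ETS1, and Taf1 is at 4.63% in H3K4me1 and 20.7% over 2 kb away.

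Where CBP peaks of like area were compared, the in-minus-outside differences were smaller for FAIRE, ETS1 and TFIIB and larger in size for Taf1 and TFIIH. FAIRE was at 38.0% in H3K4me1 and 9.38% outside it, a difference of 28.6 percentage points, and the mean difference within quintiles of the CBP list by area was 19.8. For ETS1 the difference was 21.7 points over all areas and 17.5 within quintiles, and for TFIIB it was 30.9 and 23.7. With H3K4me3 chromatin left out of both lists the difference was 13.0 for ETS1 and 18.8 for TFIIB. For Taf1 it was -14.6 and -18.1, and for TFIIH -9.32 and -13.3. In the upper 50% of CBP peaks by area they were -28.9 for Taf1 and -21.9 for TFIIH, and TFIIH was -2.12 where peaks within 500 bp counted as overlapping. For total Pol II the difference was 14.8 over all areas and 7.40 within quintiles, with values between -16.1 and 21.3 in single quintiles. The direction for total Pol II thus differed between quintiles. The difference was -0.551 points (95% interval -3.25 to 2.40) with H3K4me3 chromatin left out of both lists, which includes 0, and 2.76 (0.184 to 5.49) with only CBP peaks on H3K4me3 left out. It was 3.78 in the upper 50% of CBP peaks by area and 35.2 where peaks within 500 bp counted as overlapping. The FAIRE difference was 47.6 points where peaks within 500 bp counted as overlapping, a rule applied to FAIRE as well as to H3K4me1.

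The far CBP peaks of large area differed from those in H3K4me1 in Taf1 and Pol II. In the upper quintile by area, 4.90% (3.66 to 6.53) of 878 CBP peaks in H3K4me1 and 72.8% (66.0 to 78.7) of 184 far ones overlapped Taf1. Total Pol II was at 45.6% in H3K4me1 and 57.1% far from it, and FAIRE at 59.5% in H3K4me1 and 5.98% far from it. In the lower 4 quintiles, 4.48% of 1539 CBP peaks in H3K4me1 and 17.3% of 2816 far ones overlapped Taf1. Taf1 and TFIIH together were at 3.19% of all CBP peaks in H3K4me1 and 13.7% of all far ones. With CBP peaks that overlapped Taf1 or TFIIH left out, 42.2% (40.8 to 43.5) of the rest were in H3K4me1, and the area ratio in over outside was 1.91.

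The 3 far CBP peaks of highest area all overlapped Taf1 and TFIIB. They were chrX:51135021-51135370 with an area of 56749, chr13:44964881-44965080 with 50806 and chr18:68851671-68851900 with 45674. Their distances to H3K4me1 were 160880, 46700 and 18760 bp. They were thus smaller in area than the 3 named peaks in H3K4me1 and the 3 in short gaps. These 3 were not typical in TFIIB, which was at 7.07% (4.18 to 11.7) of the 184 far CBP peaks in the upper quintile by area.

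CBP peaks in H3K4me1 without H3K4me3, the combination found at many enhancers, were not all remote from H3K4me3. For these 1082 peaks the median distance to the nearest H3K4me3 peak was 7305 bp (quartiles 1002 to 25715). The 226 within 500 bp of H3K4me3 overlapped FAIRE in 42.9%, TFIIB in 42.0% and total Pol II in 28.8%. The 192 at 1000 to 5000 bp overlapped FAIRE in 19.3%, TFIIB in 21.4% and total Pol II in 19.8%. The 329 over 20000 bp from H3K4me3 overlapped FAIRE in 33.4%, TFIIB in 24.9% and total Pol II in 11.2%. FAIRE was thus lowest at intermediate distance, whereas total Pol II was lowest at the greatest distance.

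Seen from the mark, CBP was present in a small set of H3K4me1 peaks that were wide and of high area. Of 74607 H3K4me1 peaks, 2219 or 2.97% (2.85 to 3.10) overlapped CBP. Their median width was 1970 bp (quartiles 1010 to 3440), against 630 bp (380 to 1070) for the 72388 without, a ratio of 3.13. Median area, in the H3K4me1 list, was 276405 with CBP and 54029 without, a ratio of 5.12. The median area per bp was 139 with CBP and 87.7 without, so the peaks with CBP were higher per bp as well as wider. The share with CBP was 5.12% when peaks within 500 bp counted, 5.33% in the upper 50% of H3K4me1 peaks by area, and 1.40% with CBP peaks on H3K4me3 left out. With the same choices of 500 bp and of the upper 50% the width ratio was 2.11 and 2.06.

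A wider peak can touch CBP by its length alone, so density was computed as well. The share with CBP was 0.625% (0.539 to 0.724) in H3K4me1 peaks up to 500 bp, 1.49% at 500 to 1000 bp, 3.82% at 1000 to 2000 bp, 12.8% at 2000 to 4000 bp and 33.7% (31.1 to 36.3) over 4000 bp. The density of CBP centres over the same classes was 13.4, 15.6, 24.3, 50.6 and 72.9 per Mb. Wide H3K4me1 peaks thus held more CBP per length as well as per peak. Within each width class the median area per bp was 1.08 to 1.21 times as high with CBP as without. By quintiles of the H3K4me1 list in area per bp, the share with CBP was 0.436%, 0.798%, 1.21%, 2.44% and 9.99%.

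**Figure D5:**
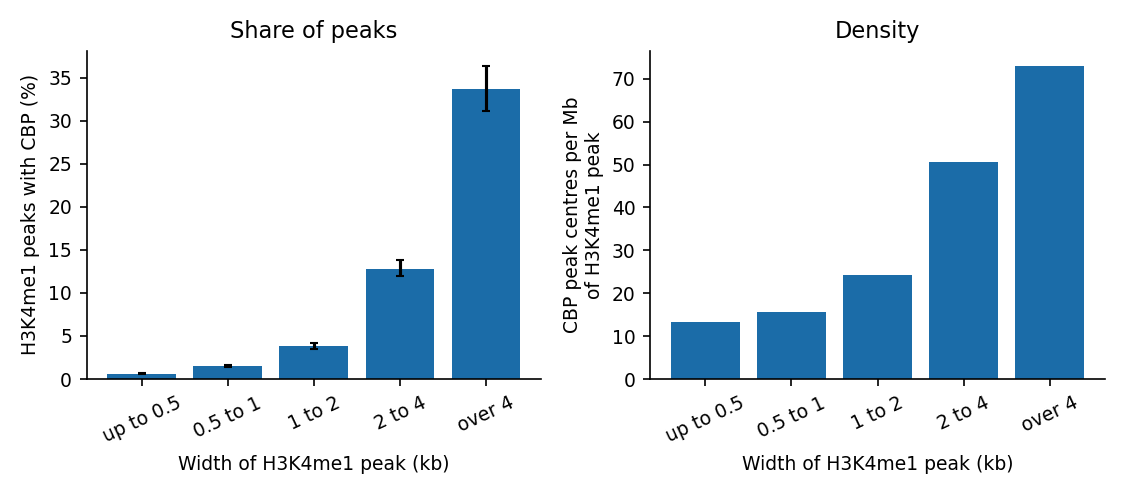
CBP in H3K4me1 peaks by width class in kb (horizontal axes), as the share of H3K4me1 peaks with CBP in percent with 95% Wilson intervals (left) and as CBP peak centres per Mb of H3K4me1 (right). The share is 0.625% in the narrowest class and 33.7% in the widest, and the density is 13.4 and 72.9 per Mb.

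H3K4me1 peaks with CBP were open and bound far more often than those without. FAIRE was at 47.0% (44.9 to 49.1) with CBP and 4.94% (4.79 to 5.10) without. ETS1 was at 29.8% (28.0 to 31.8) with CBP and 1.83% (1.74 to 1.93) without. TFIIB was at 50.5% with CBP and 5.79% without, and total Pol II at 46.8% with CBP and 8.42% without. The mean difference within quintiles of H3K4me1 width was 28.0 points for FAIRE, 18.0 for ETS1, 28.9 for TFIIB and 27.6 for total Pol II, against 42.1, 28.0, 44.7 and 38.4 points over all widths. With H3K4me3 chromatin left out of both lists the differences were 32.5 points for FAIRE, 16.8 for ETS1, 26.3 for TFIIB and 19.5 for total Pol II. In the narrowest class, up to 500 bp, FAIRE was at 25.0% with CBP and 2.09% without, and ETS1 at 17.0% with CBP and 0.164% without. In the widest class FAIRE was at 69.9% with CBP and 28.5% without, and ETS1 at 47.7% with CBP and 22.4% without.

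Not every list separated the sets to that degree. H3K4me3 was at 63.0% (61.0 to 65.0) with CBP and 34.8% (34.5 to 35.2) without, a difference of 28.2 points that was 13.1 in the upper 50% of H3K4me1 peaks by area. H3K36me3, the mark of transcribed gene bodies, was at 8.20% (7.13 to 9.42) with CBP and 5.93% (5.76 to 6.10) without, and its mean difference within width quintiles was -2.24 points. The direction for H3K36me3 therefore turned when peaks of like width were compared. Taf1, which was rarer at CBP peaks in H3K4me1 than outside it, was at 7.57% of H3K4me1 peaks with CBP and 1.20% of those without. The difference was 6.37 points, and its mean within width quintiles was 9.06 points. It was 1.52 points with CBP peaks on Taf1 or TFIIH left out. That fall follows in part from the construction, which takes out the CBP peaks that coincide with Taf1. TFIIF, a companion of Pol II, was rare in both but separated them, at 7.66% with CBP and 0.314% without.

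Turned around, H3K4me1 peaks that carried TFIIF or ETS1 held CBP most often by single list. The share was highest for TFIIF, at 170 of 397 or 42.8% (38.0 to 47.7), and it was 33.3% (31.2 to 35.4) for ETS1 and 22.6% (21.4 to 23.8) for FAIRE. Several general transcription factors were close to FAIRE, with 22.0% (20.1 to 24.0) for TFIIH, 21.4% for TFIIE, 21.1% for TFIIB and 19.4% for TFIIA. These shares were not split by width of the H3K4me1 peak. Pairs of lists were computed for FAIRE with ETS1 and FAIRE with H3K4me3. With both FAIRE and ETS1, 486 of 1045 H3K4me1 peaks, or 46.5% (43.5 to 49.5), overlapped CBP. With ETS1 and no FAIRE the share was 18.6% (16.3 to 21.3), and with FAIRE and no ETS1 it was 15.6% (14.4 to 16.8). With none of the 14 other lists it was 0.672% (0.597 to 0.756), or 274 of 40776. The share differed more with FAIRE than with H3K4me3. It was 25.8% with FAIRE and H3K4me3, 17.2% with FAIRE alone of the pair, 2.75% with H3K4me3 alone and 1.13% with neither.

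Few H3K4me1 peaks held several CBP peaks. CBP peaks numbered 1 in 1963 H3K4me1 peaks, 2 in 211, 3 in 39 and 4 in 6. FAIRE was at 84.6% of those with 3 CBP peaks, 70.1% with 2, 43.7% with 1 and 4.94% with none, and was present at 4 of the 6 with 4. The H3K4me1 peaks with 4 CBP peaks of highest area were chr8:125223101-125233350, which also held the CBP peak of highest area in the list, chr12:56563831-56571460 and chr5:137099141-137104340. The widest H3K4me1 peaks with no CBP peak were chr1:43511511-43532330 of 20820 bp, chr11:22741991-22758100 of 16110 bp and chr2:18835941-18851210 of 15270 bp, and all 3 overlapped H3K4me3 and ETS1. The widest H3K4me1 peak of all, chr1:140039841-140068750 of 28910 bp, held 2 CBP peaks and was picked after its values were seen.

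Chaining H3K4me1 peaks over short gaps gave 33281 domains. A domain held CBP, in a peak or in a gap, in 2314 cases or 6.95% (6.68 to 7.23), and these held 2973 CBP peaks or 46.7% (45.4 to 47.9) of the list. Median span was 5290 bp with CBP and 1440 bp without. By span the share with CBP was 0.597% up to 1000 bp, 3.01% at 1000 to 2000 bp, 8.41% at 2000 to 5000 bp, 21.1% at 5000 to 10000 bp, 42.3% at 10000 to 20000 bp and 73.6% (67.7 to 78.7) over 20000 bp. Most of the longest domains thus held CBP, at 178 of 242. A longer domain can hold CBP by its length alone, and CBP per length was not computed by domain span. The rise of the share with span therefore does not show a higher density in long domains. Domains of 5 or more H3K4me1 peaks held CBP in 30.3% and domains of 1 peak in 1.44%. The 23 domains with 5 or more CBP peaks had a median span of 32270 bp.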

How the data were processed

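Of 20 samples of DP thymocytes, 16 had a peak list, 15 from ChIP-seq and 1 from FAIRE. The input, the rabbit immunoglobulin control and both RNA samples, 4 in all, were not analysed here. The deposited lists give each peak's position and area, a signal under the authors' track. Per the deposited track names, artefact regions were removed and tracks were scaled and background-subtracted, except FAIRE, whose name records none of this. Per those names CBP, Taf1 and TFIIB came from 1 replicate and the others were merged. ETS1 was precipitated with sheep anti-rabbit beads and the rest with Protein-G beads, per the labels' protocols. The build was mm9, per the submitters' processing notes. The aligner, peak caller, threshold and read depth were not given in the sources used here.

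Overlap meant at least 1 bp, on coordinates in 10 bp bins. Distances run from the CBP centre to an edge inside a peak, and from end to end outside. No p-value was computed, since each target had 1 list. The members and lists were chosen with earlier results of these data known. Regions named were the 3 CBP peaks of highest area in H3K4me1, in short gaps and far away, the 3 H3K4me1 peaks with most CBP, the 3 widest without CBP, and the 3 short gaps of highest summed CBP area. Alternatives covered overlap, thresholds, autosomes, joined peaks, H3K4me3, gap length and area or width quintiles. Where peaks within 500 bp counted as overlapping, the rule held for H3K4me1 and for the other lists alike. Overlap code was tested on simulated data. The software was matplotlib 3.10.9, pandas 2.3.3, scipy 1.17.1 and numpy 2.4.6 under Python 3.11.15.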

Additional observations from a re-analysis of the deposited data

How the results depend on the processing

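Of 65 alternative values for the 6 main results, 23 stayed within the interval of the reported value. The area ratio, the width ratio and the FAIRE difference kept their direction, and the other 3 results are shares, which have none. CBP in H3K4me1, 37.9% as reported, was 33.6% by CBP centre, 48.7% within 500 bp, 48.5% for the upper 50% of CBP peaks by area, 34.4% for the upper 50% of H3K4me1 peaks, 36.4% with CBP peaks within 500 bp joined, 40.5% with H3K4me1 peaks so joined and 18.2% with H3K4me3 chromatin left out of both lists. H3K4me1 with CBP, 2.97%, was 2.52%, 5.12%, 2.05% and 5.33% under the first 4 of these, 4.43% with H3K4me1 joined and 1.65% without H3K4me3 chromatin. CBP in short gaps, 8.73%, was 0.455% within 500 bp, 10.2% for upper CBP peaks, 6.51% for upper H3K4me1 peaks, 6.17% with H3K4me1 joined, 1.06% without H3K4me3 chromatin, 6.25% with gaps up to 1000 bp and 10.5% with gaps up to 5000 bp. The fall within 500 bp and with joined H3K4me1 follows from the construction, which closes most gaps.

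The area ratio in over outside, 1.73, was 1.54 by centre, 1.41 for upper CBP peaks and 1.85 with CBP joined. The width ratio with over without CBP, 3.13, was 3.54 by centre, 2.11 within 500 bp, 2.06 for upper H3K4me1 peaks and 3.86 with H3K4me1 joined. The FAIRE difference in minus outside, 28.6 points, was 22.3 by centre, 47.6 within 500 bp, 32.9 for upper CBP peaks, 31.1 with CBP joined, 31.0 with H3K4me1 joined, 25.9 without H3K4me3 chromatin, 19.8 within area quintiles and 35.7 with short gaps left out of the outside set.

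Added after seeing the data were 2 alternatives. With CBP peaks on Taf1 or TFIIH left out, the values were 42.2% of CBP in H3K4me1, 2.61% of H3K4me1 with CBP and an area ratio of 1.91. With CBP peaks on H3K4me3 left out and all H3K4me1 kept, they were 24.0%, 1.40%, 2.51% in short gaps and an area ratio of 1.58. For 26 of 28 list differences, FAIRE included, the interval of the reported value excluded 0, and 4 of their 292 alternative values had the opposite sign and 56 moved by over 1.5 times. Total Pol II in minus outside was 14.8 points and -0.551 (-3.25 to 2.40) without H3K4me3 chromatin. TFIIA in minus outside was -6.60 and 0.928 without CBP peaks on Taf1 or TFIIH. H3K36me3 in H3K4me1 peaks with minus without CBP was 2.27, against -1.59 without H3K4me3 chromatin and -2.24 within width quintiles. The intervals of the other 2, Ser2P and TFIIF in minus outside, held 0, and 5 of their 24 alternative values had the opposite sign. Ser2P was -0.205 points, against 0.739 within 500 bp, 0.0193 with H3K4me1 joined and 0.816 without CBP peaks on Taf1 or TFIIH. TFIIF was 1.08, against -0.800 for upper CBP peaks and -1.48 within area quintiles. The cause was not tested.

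No paired analysis was possible because each target had 1 list, and for the same reason no replicate was left out. The CBP list was 1 replicate of unknown depth, so CBP peaks under the authors' threshold were not detectable, and the shares of H3K4me1 peaks without CBP include any such sites. Listed CBP peaks that another replicate would not repeat could not be told apart either. The far share includes any such peaks, and far CBP peaks made up 61.9% of the lowest decile by area.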

Other observations

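CBP peaks that shared a position with another factor were distributed very differently between H3K4me1 and the chromatin far from it, depending on the factor. Over all 6372 CBP peaks, 37.9% were in H3K4me1 and 47.1% were far from it. Of 1410 CBP peaks with TFIIB, 70.9% (95% Wilson interval 68.4 to 73.2) were in H3K4me1 and 3.26% (2.45 to 4.32) were more than 2000 bp from it. Of 1289 CBP peaks with FAIRE, 71.2% (68.7 to 73.6) were in H3K4me1 and 1.94% (1.32 to 2.85) were far from it. Total Pol II, TBP and TFIIE at CBP peaks were less concentrated, with 49.9%, 50.8% and 52.0% in H3K4me1 and 25.0%, 24.4% and 24.7% far from it. The opposite distribution was that of Taf1, where 12.9% (10.8 to 15.2) of 871 CBP peaks were in H3K4me1 and 71.4% (68.3 to 74.3) were far from it. TFIIH and TFIIA, with 24.9% and 22.4% in H3K4me1 and 55.4% and 52.2% far from it, were on the same side as Taf1. Both lay closer to the shares over all CBP peaks than Taf1 did. With CBP peaks on Taf1 or TFIIH left out, the in-minus-outside difference for TFIIA was 0.928 points, against -6.60 over all CBP peaks. CBP peaks with H3K36me3 were few, at 216, of which 13.9% (9.91 to 19.1) were in H3K4me1 and 77.3% (71.3 to 82.4) were far from it.

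CBP peaks were mostly solitary. Joined where they lay within 500 bp of each other, the 6372 peaks gave 6041 sites, of which 290 held more than 1 CBP peak and none held more than 4.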
